A study of Mus musculus with 4 samples.

Results

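Mast cells in mouse skin were followed through 8 of their genes. These were Hdc, the mast cell proteases Tpsb2, Tpsab1, Cpa3, Cma1 and Mcpt4, and Fcer1a and Ms4a2, which encode the alpha and beta chains of the high-affinity IgE receptor. A probe was taken when its symbol in the platform annotation equalled one of these 8 names, which gave 14 of the 45281 probes of the array and 8 of the 19057 gene symbols it carries singly. The samples were 4 Illumina bead arrays of total RNA from the back skin (labelled dorsal skin) of C57BL/6J animals 8 to 12 weeks old, with 1 array for each of 4 groups and a pool of 6 mice on each array. All mice carried an injected mini-circle, a small circular expression vector. It held GFP in the control group, called GFP, and IL-17A in the group called IL-17A. The groups GFP+IMQ and IL-17A+IMQ also received IMQ, an agent that the labels give by this abbreviation alone and that usually stands for imiquimod, which activates Toll-like receptor signalling. Its dose and schedule and the route of injection were not stated in the labels, and no skin without a mini-circle was analysed here. The group names refer to the mini-circle given, and whether skin cells expressed it is not stated.

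Mast cells are long-lived tissue cells that lie in the dermis near vessels and nerves and store ready-made mediators in granules. In connective tissue mast cells of the mouse these granules hold histamine, made from histidine by the enzyme that Hdc encodes, together with heparin-bound tryptases, chymases and carboxypeptidase A3. IgE bound to its receptor on the surface triggers their release when antigen crosslinks it. Histamine synthesis is not private to mast cells: basophils and neutrophils also transcribe Hdc, whereas the proteases are the narrower markers.

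The comparisons asked how IL-17A changes these genes without and with IMQ, how IMQ changes them in GFP and in IL-17A skin, and whether the effect of one agent changes with the other. With 1 array per group there was no test and no replicate error, so higher and lower refer to single arrays throughout. Levels are background-subtracted linear signals as deposited. Differences are on the log2 scale after normexp correction (offset 50) and quantile scaling, which shrinks the differences of dim probes. A gene was counted when its difference was at least 1, that is 2-fold, and its brighter array was above its detection limit. For the difference of differences, which uses all 4 arrays, at least 1 of them had to be above its limit. These limits lay between 11.6 and 12.7. Between 45.2% and 45.8% of the probes of each array were above the limit. The Il17a probe was above it on 1 array, IL-17A+IMQ, at a signal of 14.4, and whether it can detect the mini-circle is not known. The epidermal keratin genes Krt5, Krt14, Krt1 and Krt10 were above the limit on all 4 arrays, and these define the epidermis of the labelled tissue.

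Of the 14 member probes, 10 were above the limit on all 4 arrays and 2 on none. At the level of genes, 6 of 8 were above it on all 4 arrays: Hdc, Tpsb2, Cpa3, Cma1, Mcpt4 and Fcer1a. Tpsab1 was above it on 1 array and Ms4a2 on none. Other mast cell markers were looked up as a check of the label. Of 6, the growth factor receptor gene Kit, the transcription factor gene Gata2, the receptor gene Mrgprb2 and the exchange factor gene Rasgrp4 were above the limit on all 4 arrays, and Mrgprb1 and Slc18a2 were below it on all. Only the brightest Kit probe was above the limit on all 4 arrays. Another Kit probe was above it on the array GFP alone, at 14.7, and another on none. The proteases Mcpt1, Mcpt2 and Mcpt9, of which Mcpt1 and Mcpt2 belong to mucosal mast cells, were below the limit on all 4 arrays. Mcpt8, Prss34 and Cd200r3, listed here as basophil genes, were also below it on every array.

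The promoter sequences of the genes on which the results turn are shown because the proteases moved together and Hdc did not follow them fully. RefSeq windows were found for 6 of the 8 members. Each sequence is the 250 bases before the RefSeq transcription start on GRCm38.p6, all on the minus strand of the chromosome and printed 5′ to 3′ in the direction of the gene. Capitals mark a GATA motif, the letters GATA with A or T before them and A or G after them, on either strand. GATA2 is a transcription factor of the mast cell lineage that binds such motifs.
Hdc (chr2:126618679-126618928): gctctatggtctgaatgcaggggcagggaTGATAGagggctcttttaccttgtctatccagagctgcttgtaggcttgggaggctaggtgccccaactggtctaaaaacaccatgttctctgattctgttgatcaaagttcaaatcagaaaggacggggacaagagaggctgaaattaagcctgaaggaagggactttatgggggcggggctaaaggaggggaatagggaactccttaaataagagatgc
Cpa3 (chr3:20242182-20242431): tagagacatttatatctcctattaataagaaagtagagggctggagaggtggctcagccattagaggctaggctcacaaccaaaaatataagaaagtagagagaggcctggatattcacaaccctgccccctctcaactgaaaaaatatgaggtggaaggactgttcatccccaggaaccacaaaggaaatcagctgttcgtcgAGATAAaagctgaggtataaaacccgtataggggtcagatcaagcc
Cma1 (chr14:55944676-55944925): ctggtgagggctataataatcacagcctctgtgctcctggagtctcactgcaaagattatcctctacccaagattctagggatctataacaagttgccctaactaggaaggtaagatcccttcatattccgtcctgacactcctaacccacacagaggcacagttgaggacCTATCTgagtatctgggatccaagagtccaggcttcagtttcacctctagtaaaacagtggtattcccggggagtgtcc
Mcpt4 (chr14:56062311-56062560): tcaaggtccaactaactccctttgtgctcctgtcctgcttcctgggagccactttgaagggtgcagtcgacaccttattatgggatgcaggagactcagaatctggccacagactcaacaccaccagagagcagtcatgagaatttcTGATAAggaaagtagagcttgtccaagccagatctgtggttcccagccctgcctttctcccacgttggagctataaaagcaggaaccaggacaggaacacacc
All 6 windows held at least 1 such motif, Ms4a2 held 3, and 26.5% of 32536 RefSeq windows of the same length held 1 or more. The motif began 46 bases before the start in Cpa3, 79 in Cma1, 103 in Mcpt4 and 221 in Hdc. The letters TATAAA, read on the gene's strand, began 31 bases before the start in Cpa3 and 32 in Mcpt4, and occurred in 7.55% of all windows. In Hdc and Cma1 these letters are not in the window. A match of letters is a description and no evidence of binding.

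Hdc, which encodes histidine decarboxylase, was higher on both IL-17A arrays than on the GFP array with the same IMQ treatment. The brighter of its probes read 408 in GFP, 805 in IL-17A, 239 in GFP+IMQ and 1198 in IL-17A+IMQ skin. The second probe gave 75.5, 136, 37.9 and 172 in the same order. Both probes placed the arrays in the same order, with GFP+IMQ lowest and IL-17A+IMQ highest. On the log2 scale the brighter probe was 0.83 higher in IL-17A than in GFP skin, or 1.78-fold, and 1.99 higher under IMQ, or 3.96-fold. The second probe was 0.51 and 1.18 higher. IMQ went with a lower value in GFP skin, by 0.49, and a higher value in IL-17A skin, by 0.66. With both treatments Hdc was 2.82-fold above its value with neither.

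The tryptase gene Tpsb2, whose product is stored with heparin as a tetramer, had its lowest value on the array GFP+IMQ. It read 210.0 in GFP, 143 in IL-17A, 72.5 in GFP+IMQ and 220 in IL-17A+IMQ skin. The arrays GFP and IL-17A+IMQ were thus close to each other, with IL-17A between them and the lowest array. On the log2 scale Tpsb2 was lower by 0.89 with IMQ in GFP skin and 1.01 higher in IL-17A than in GFP skin under IMQ, or 2.02-fold. Linear signals, without the offset, gave ratios of 2.90 and 3.03 for the same pairs of arrays. A second probe annotated to Tpsb2 was below the limit on all 4 arrays and did not bear on these values.

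Tpsab1, the neighbouring tryptase gene, is listed as a transcribed pseudogene in the RefSeq table of the C57BL/6J genome, and this strain is known to make no mouse mast cell protease 7 from it. It read 4.42 in GFP, 9.002 in IL-17A, 4.70 in GFP+IMQ and 26.9 in IL-17A+IMQ skin. The probe was above the limit on the array IL-17A+IMQ alone, where it was at least 1.20-fold above GFP, IL-17A and GFP+IMQ skin. Tpsb2 and Tpsab1 lie on chromosome 17 with 0 protein-coding genes between them in that table and are related in sequence, so their probes may share transcripts.

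Cpa3, which encodes the carboxypeptidase that trims peptides after chymase cleavage, had 3 probes above the limit on all arrays. The brightest probe gave 878 in GFP, 705 in IL-17A, 409 in GFP+IMQ and 916 in IL-17A+IMQ skin. The next gave 884, 581, 422 and 825, again with GFP+IMQ lowest. The third, dimmer probe gave 119, 81.7, 82.5 and 106, with IL-17A and GFP+IMQ nearly level at the bottom. With IMQ in GFP skin the 3 probes were lower by 0.81, 0.78 and 0.20 on the log2 scale, and with IL-17A under IMQ they were 0.95, 0.76 and 0.16 higher. The direction was shared by all 3 probes and the size was not.

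The chymase genes Cma1 and Mcpt4 lie in the mast cell protease cluster of chromosome 14. Mcpt4 encodes the main chymotrypsin-like chymase of mouse skin mast cells, and the product of Cma1 cuts like an elastase in the mouse. The brighter Cma1 probe gave 736 in GFP, 608 in IL-17A, 349.5 in GFP+IMQ and 708 in IL-17A+IMQ skin. Its second probe gave 650.2, 508, 281 and 551, in the same order of arrays. Mcpt4 gave 860.2, 601, 496 and 911. As with the dimmest Cpa3 probe, the Mcpt4 values in IL-17A and GFP+IMQ skin were close. They were lower than in GFP skin by 0.50 and by 0.54 on the log2 scale. For Cma1 these differences were -0.29 and -0.78. Under IMQ, Cma1 was 0.79 and Mcpt4 0.70 higher in IL-17A than in GFP skin.

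The receptor genes gave less information, because their signals were low. Fcer1a, the IgE-binding chain, gave 51.2 in GFP, 46.8 in IL-17A, 23.8 in GFP+IMQ and 68.3 in IL-17A+IMQ skin with its brighter probe. It was lower by 0.33 with IMQ in GFP skin and 0.58 higher with IL-17A under IMQ. Its second probe was above the limit on the array IL-17A+IMQ alone. Ms4a2, the signal-amplifying chain, stayed below the limit with signals from -5.69 to 3.41, so no difference can be given for it.

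**Figure D1:**
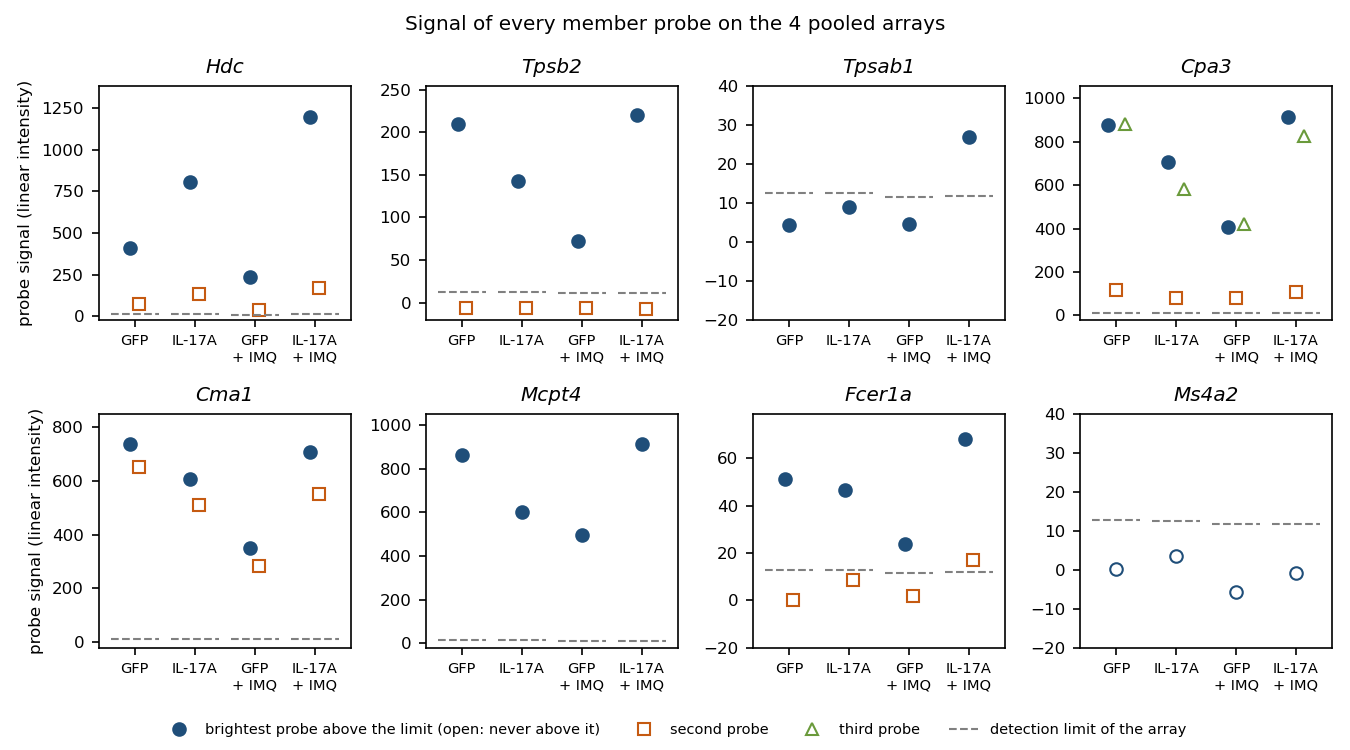
Each panel shows 1 gene: the vertical axis is the background-subtracted probe signal (linear intensity), the horizontal axis the 4 pooled arrays, each point 1 probe on 1 array, and dashed bars the detection limit of the array. In Hdc both probes are highest in IL-17A+IMQ skin (1198 and 172), whereas Tpsb2, the 2 brighter Cpa3 probes, Cma1 and Mcpt4 have similar values in GFP and IL-17A+IMQ skin and are lowest in GFP+IMQ skin.

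The array GFP+IMQ held the lowest log2 value for 6 of the 6 members above the limit on all arrays, and for 9 of their 10 probes, the exception being the dimmest Cpa3 probe. Over all 10366 genes above the limit on all 4 arrays, 23.3% were lowest there. Fewer mast cells in a pool and less of these transcripts per mast cell cannot be told apart in RNA of whole skin. Because 1 array carries this low value, it enters each comparison that uses that array. The array GFP differed from the other arrays in genes of other tissue parts. Hair shaft and root sheath genes summed to 48.7 in GFP, 22429 in IL-17A, 9222 in GFP+IMQ and 36998.5 in IL-17A+IMQ skin. Dermal fibroblast genes summed to 31008, 20845, 21006 and 21032 in the same order. The part of tissue make-up in the members' values was not tested.

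In the comparison of IL-17A with GFP skin without IMQ, 0 of the 7 members above the limit on some array were at least 2-fold higher and 0 lower, against 0.841% higher and 0.99% lower among all 12729 genes. The median of the members was -0.29, with 5 of 7 below 0, and the median of all genes was 0.01. Hdc stood apart from the proteases here: it was 0.83 higher, while Tpsb2, Cpa3, Cma1 and Mcpt4 were lower by 0.29 to 0.50. With IMQ in GFP skin, 0 of 7 were at least 2-fold higher and 0 lower (background 0.416% and 0.283%), the median was -0.54 and 6 of 7 were below 0. This result was sensitive to the treatment of the background, since Tpsb2 passed 2-fold in the authors' normalized log2 values, at -1.15, and with an offset of 16, at -1.08, where 1.08% and 0.636% of all genes were called lower.

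Under IMQ, Hdc and Tpsb2, 2 of 7 members, were at least 2-fold higher in IL-17A than in GFP skin and 0 lower, against 1.06% and 0.283% of all genes. All 7 members were above 0 and their median was 0.79, beside 0.00356 for all genes. Tpsab1 entered the 7 only through the array IL-17A+IMQ, so its sign here carries no information. The 6 members above the limit on all 4 arrays were all above 0. Cpa3, at 0.95, was just under the threshold and passed it in the authors' normalized values, at 1.03, where 1.98% of all genes were higher. This comparison and that of IMQ in GFP skin share the array GFP+IMQ, so their values are not separate evidence. In IL-17A skin, where that array does not enter, these 6 members were all above 0 with IMQ, from 0.29 for Fcer1a to 0.66 for Hdc and Mcpt4. The median of the 7, with Tpsab1, was 0.46. None (0 of 7) reached 2-fold in either direction there, where 0.165% of all genes were higher and 0.0786% lower.

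With both treatments against neither, Hdc was the 1 member of 7 that was at least 2-fold higher, and 0 were lower, where the background was 1.41% and 1.19%. Tpsb2, Cpa3, Cma1 and Mcpt4 lay between 0.00 and 0.16 on the log2 scale in that comparison. The protease values of untreated GFP skin and of skin with both treatments therefore differed by at most 1.12-fold, while Hdc differed by 2.82-fold. The difference between the Hdc value and the median of these 4 proteases was 1.36 there, 1.20 for IL-17A without IMQ and 1.12 for IL-17A under IMQ. For IMQ it was 0.31 in GFP and 0.17 in IL-17A skin. In these arrays Hdc and the proteases parted more between GFP and IL-17A skin than between skin without and with IMQ.

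The IL-17A difference under IMQ minus that without IMQ was the quantity in which the most members passed the 2-fold threshold. It was 1.42 for Tpsb2, 1.27 for Cpa3, 1.20 for Mcpt4, 1.15 for Hdc and 1.08 for Cma1, so 5 of 7 members were at or above 1 and 0 at or below -1. Among all genes 0.683% were at or above 1 and 0.44% at or below -1. Fcer1a had 0.62 and Tpsab1, above the limit on 1 array, 0.31, and the median of the 7 was 1.15, beside -0.01 for all genes. Values above 0 were not particular to the members. Of dermal fibroblast genes 10 of 10 were above 0, with a median of 0.69 and 2 at or above 1. Of macrophage genes 11 of 11 were, with a median of 0.74 and 2 at or above 1. Of keratinocyte genes 3 of 8 were above 0, with a median of -0.12, and of T and NK cell genes 1 of 6, with a median of -0.23. In the order of 12729 genes from the highest value, Tpsb2 was at place 22, Cpa3 at 29, Mcpt4 at 44, Hdc at 60 and Cma1 at 78. Hdc and the proteases shared this value although Hdc came to it from 0.83 to 1.99 and Tpsb2 from -0.41 to 1.01. With the mean of each gene's probes, Hdc and Tpsb2 fell under 1, at 0.91 and 0.68, the latter because its second probe was dark.

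**Figure D2:**
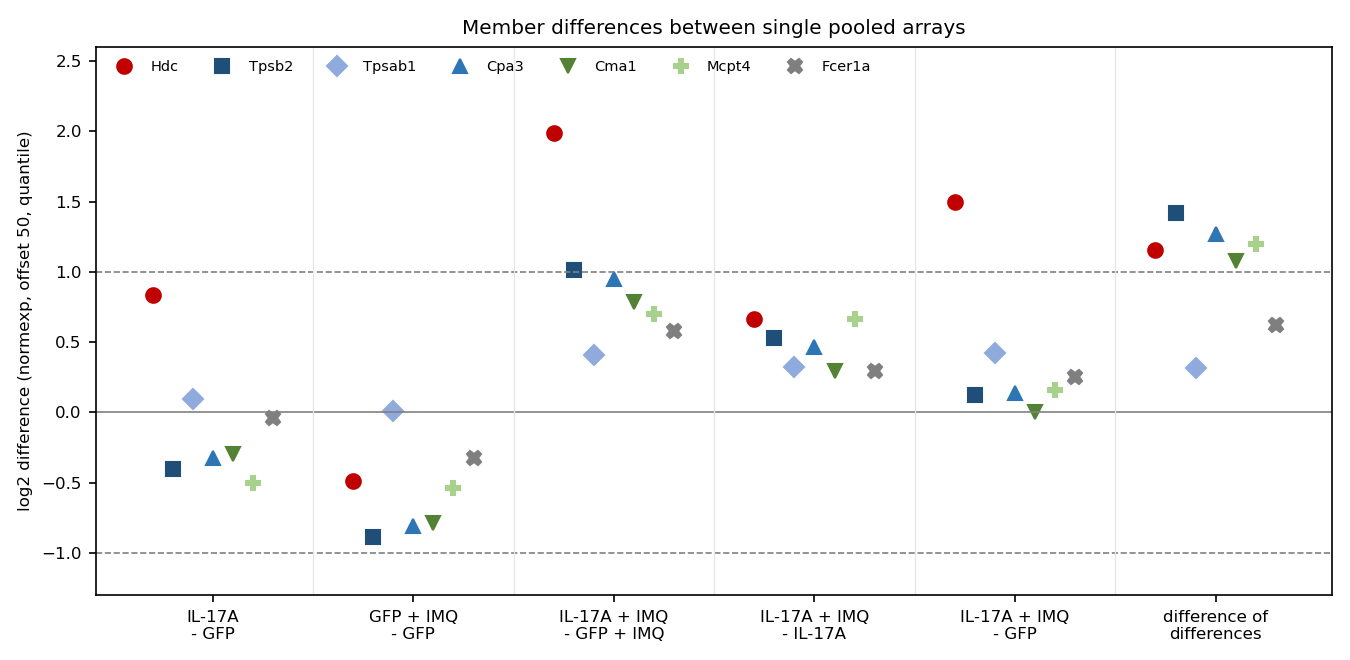
The vertical axis is the log2 difference between 2 single pooled arrays (normexp offset 50, quantile scaling), the horizontal axis the 5 comparisons and the difference of differences, each point 1 member, and dashed lines 2-fold. Hdc alone is above 0.5 without IMQ and in both treatments against neither, and Hdc, Tpsb2, Cpa3, Cma1 and Mcpt4 are all above 1 in the difference of differences.

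The genes with the profiles most like those of the members were sought by Euclidean distance between log2 values centred on each gene's mean over the 4 arrays, among 10360 other genes above the limit on all arrays. Closest to the mean of Tpsb2, Cpa3, Cma1 and Mcpt4 was Cyp7b1, an oxysterol hydroxylase gene, at a distance of 0.082, followed by the interferon-induced Isg15 at 0.149. The third was Cma2, at 0.175, a chymase-family gene that lies between Cma1 and Mcpt4 in the RefSeq gene table together with Mcpt1, Mcpt2 and Mcpt9. Cma2 read 1324 in GFP, 1149 in IL-17A, 745 in GFP+IMQ and 1339 in IL-17A+IMQ skin, the same order of arrays as Tpsb2. It was no member, and its related sequence means that its probe may share transcripts with the other chymases. Enc1 and Lrp1, the receptor for many extracellular ligands, followed at 0.175 and 0.196, while the 4 proteases themselves lay at 0.085 to 0.242 from their mean and Hdc at 1.19.

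Closest to Hdc were the immediate early gene Fos and the myeloid lectin gene Clec4d, both at a distance of 0.277, then Gm5477 at 0.292, the cornified envelope gene Lce3b at 0.328 and the chemokine gene Ccl7 at 0.404. Fos gave 391, 635, 208 and 892 in GFP, IL-17A, GFP+IMQ and IL-17A+IMQ skin. Clec4d gave 58.5, 153, 21.7 and 351. With 4 arrays many genes share a profile, and the likeness is a description of these arrays.

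**Figure D3:**
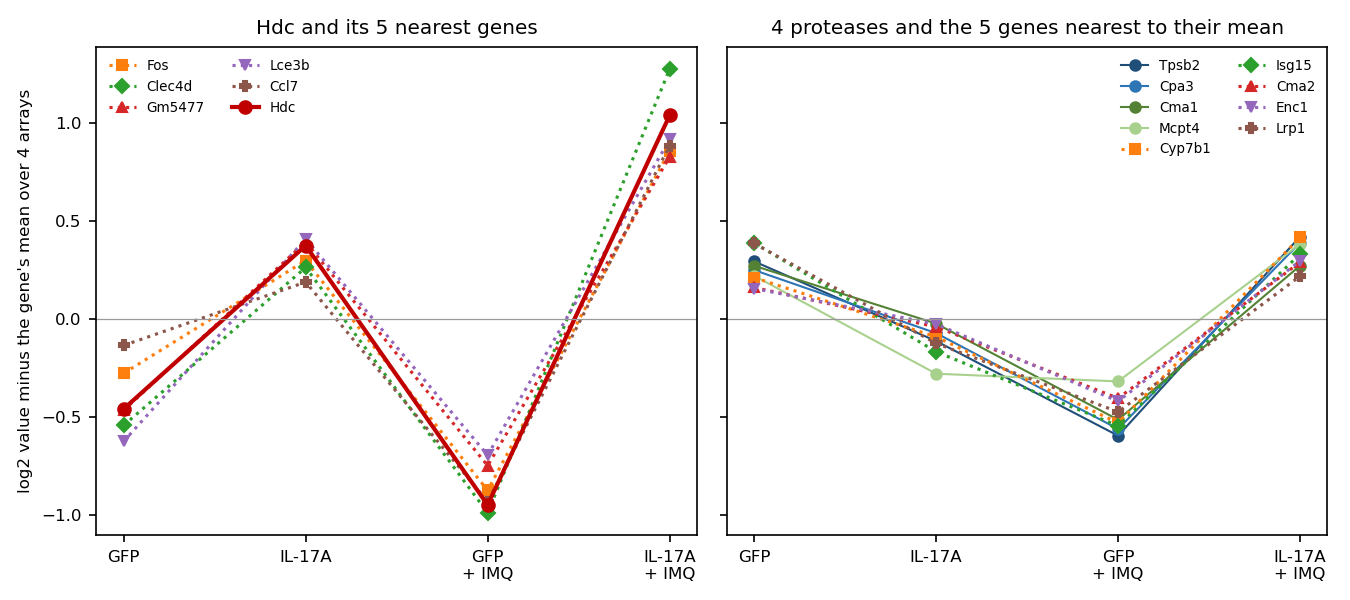
The vertical axis is the log2 value minus the gene's mean over the 4 arrays, the horizontal axis the arrays, and lines join the values of 1 gene as a guide only. Hdc and its nearest genes are above their mean in both IL-17A groups (0.37 and 1.04 for Hdc), and the proteases with Cma2 are above it in GFP and in IL-17A+IMQ skin (0.26 and 0.36 for the mean of the proteases).

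Some markers of neutrophils, which can carry Hdc, were high on the arrays where Hdc was high, and others were not. Of 21 neutrophil genes, 19 had a probe and 17 were above the limit on at least 1 array. Their signals summed to 3852 in GFP, 16274 in IL-17A, 2766 in GFP+IMQ and 33695 in IL-17A+IMQ skin, the order of arrays seen for Hdc. S100a8 and S100a9, which keratinocytes also make, gave 1557, 14130, 1506 and 30927 of this, in the same order. The other 15 genes, summed after the values were seen, gave 2295, 2144, 1260 and 2768, the order of arrays of Tpsb2. The brightest of the 15, Il1r2, weighed most in this smaller sum, at 1250, 815, 779 and 703. The order of the smaller sum rests on Il1r2, since the remaining genes without it sum in the Hdc order of arrays. Taken singly, Clec4d, Fpr2, Csf3r, Mmp9, Clec4e and Camp had the Hdc order of arrays, Clec4e and Camp with some arrays below the limit. The rest of the 15 did not have it. Under IMQ 7 of the 17 passed 2-fold on the higher side in IL-17A skin and 0 on the lower side, with a median of 0.76, led by S100a8, S100a9 and the neutrophil gene Retnlg, at 20.5-fold, 15.8-fold and 5.31-fold. In that comparison 14 of the 17 were above 0, among them the protease gene Mmp9, 2.04-fold higher. Prtn3, Elane and the decoy receptor gene Il1r2 were below 0. Prtn3, which encodes proteinase 3, gave 369 in GFP, 94.0 in IL-17A, 156 in GFP+IMQ and 88.9 in IL-17A+IMQ skin, 2.74-fold lower with IL-17A without IMQ and 1.51-fold lower under IMQ. Il1r2 was lower by 0.60 and 0.26 on the log2 scale in these comparisons, and Elane, which encodes neutrophil elastase, by 0.13 and 0.06. Mmp8 and Ngp were below the limit on every array. The part of neutrophils in the Hdc result was not tested. In the basophil list Mcpt8, Prss34 and Cd200r3 were below the limit on all arrays. Of its chemokine genes, which many leukocytes share, Ccl4 was 5.46-fold higher under IMQ in IL-17A skin, and Ccl3, below the limit on the array GFP+IMQ, was at least 2.79-fold higher. Eosinophil genes with a probe, 5 of 7, were below the limit on every array.

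Genes of the immediate early and heat shock list, some of which react to tissue handling, summed to 12421 in GFP, 15567 in IL-17A, 9374 in GFP+IMQ and 18609 in IL-17A+IMQ skin. With IMQ in GFP skin 2 of 11 were at least 2-fold lower, Fosb at 3.27-fold and Atf3 at 2.00-fold, and Fos was 1.51-fold lower. Under IMQ 3 of 11 passed 2-fold on the higher side in IL-17A skin, Fos, Fosb and Egr1. Their sum was lowest on the array where the members were lowest, and their part in the members' low value there was not tested.

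Surface receptor genes of mast cells gave mixed patterns. Of 16 mast cell surface receptor genes, 10 were above the limit on some array, and under IMQ 0 of them were at least 2-fold higher or lower in IL-17A skin, with a median of -0.23. In the difference of differences 0 of 10 reached 1 in either direction, 8 of 10 were above 0 and the median was 0.37, beside -0.01 for all genes. Mrgprb2, the receptor through which peptides and many cationic drugs trigger mouse connective tissue mast cells without IgE, gave 412 in GFP, 221 in IL-17A, 337 in GFP+IMQ and 189 in IL-17A+IMQ skin. It was low on both IL-17A arrays, on which Hdc was high, and lower by 0.76 in IL-17A than in GFP skin both without and with IMQ. Kit, the receptor for stem cell factor, which melanocytes also carry, gave 110, 138, 95.9 and 192 with its brightest probe. This signal was lowest on the array GFP+IMQ, where the log2 value was 0.01 from that in GFP skin, and it was 0.62 higher in IL-17A than in GFP skin under IMQ. The signals of Gata2 were 82.3, 85.5, 69.1 and 74.0, and those of the brightest Rasgrp4 probe were 706, 692, 672 and 591. The range over arrays was narrow for both probes, while the dimmer Rasgrp4 probes ran from 22.4 to 39.8 and from 30.05 to 56.8.

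The receptor chain that Fcer1a and Ms4a2 share with other Fc receptors, Fcer1g, is also expressed by macrophages and neutrophils. It gave 6529 in GFP, 2947 in IL-17A, 3706 in GFP+IMQ and 2804 in IL-17A+IMQ skin and was 2.12-fold lower in IL-17A than in GFP skin. Fcgr2b and Fcgr3, low-affinity IgG receptor genes, were 2.42-fold and 2.35-fold lower in the same comparison, in which 3 of 10 surface receptor genes passed 2-fold downwards and 0 upwards. Macrophage genes moved with these 3: their summed signal over 11 genes above the limit was 34388, 13330, 18958 and 11924 in the 4 groups, and 8 of 11 passed 2-fold on the lower side in IL-17A skin, among them Siglec1, Aif1 and C1qa. The part of macrophages in the Fc receptor values was not tested.

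Of 16 genes that carry the IgE receptor signal inside the cell, 12 were above the limit, and 0 were at least 2-fold higher or lower in IL-17A than in GFP skin without IMQ. Their median was -0.29, with the kinase gene Btk at -0.75, the phosphatase gene Ptpn6 at -0.62 and the exchange factor gene Vav1 at -0.56, genes that other leukocytes share. Of 16 further granule and secretion genes, 7 were above the limit and 0 were at least 2-fold apart with IMQ in GFP skin, where their median was -0.01. Srgn, which encodes serglycin, the proteoglycan core that binds the proteases in the granule, was the lowest of them at -0.72. It read 247 in GFP, 130.2 in IL-17A, 109 in GFP+IMQ and 153 in IL-17A+IMQ skin, with GFP+IMQ lowest, as for the proteases, and its difference of differences was 0.95. With both treatments it was 0.46 lower than in GFP skin, where the proteases were at most 0.16 apart. Among 7 transcription factor genes above the limit 0 of 7 were 2-fold apart in any of the comparisons.

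Lipid mediator genes of mast cells, which macrophages share, differed among themselves. Ltc4s, which encodes leukotriene C4 synthase, gave 493 in GFP, 231 in IL-17A, 187 in GFP+IMQ and 201 in IL-17A+IMQ skin and was 2.01-fold lower with IMQ in GFP skin. Alox5ap, which presents arachidonic acid to 5-lipoxygenase, gave 4081, 1500.2, 1894 and 1533, 1.78-fold lower in that comparison. Of the 6 genes of this list above the limit, 1 was at least 2-fold lower and 0 higher there, with a median of -0.39 and 2 of 6 above 0. Ptges, which encodes a prostaglandin E synthase, gave 231, 380.2, 179 and 359, 0.55 higher with IL-17A without IMQ and 0.72 higher under IMQ on the log2 scale. Ptgds, which encodes a prostaglandin D synthase, had low signals of 14.5, 41.1, 33.2 and 54.96 and was above 0 in each of the 5 comparisons between arrays, from 0.21 to 0.64. Of 10 genes for histamine receptors and histamine breakdown, 3 were above the limit, and 0 of 3 were 2-fold apart in any comparison.

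Among growth factors and cytokines that act on or come from mast cells, 9 of 14 genes were above the limit on some array. Il33, whose product is released by stressed epithelium and activates mast cells, gave 258 in GFP, 807 in IL-17A, 262 in GFP+IMQ and 1070.4 in IL-17A+IMQ skin. It was 2.62-fold higher in IL-17A than in GFP skin without IMQ, where it was the 1 gene of the 9 at least 2-fold higher and 0 were lower, and 3.30-fold higher under IMQ. Like Hdc it was high on both IL-17A arrays, but it was level between GFP skin without and with IMQ, where Hdc was lower by 0.49.

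**Figure D4:**
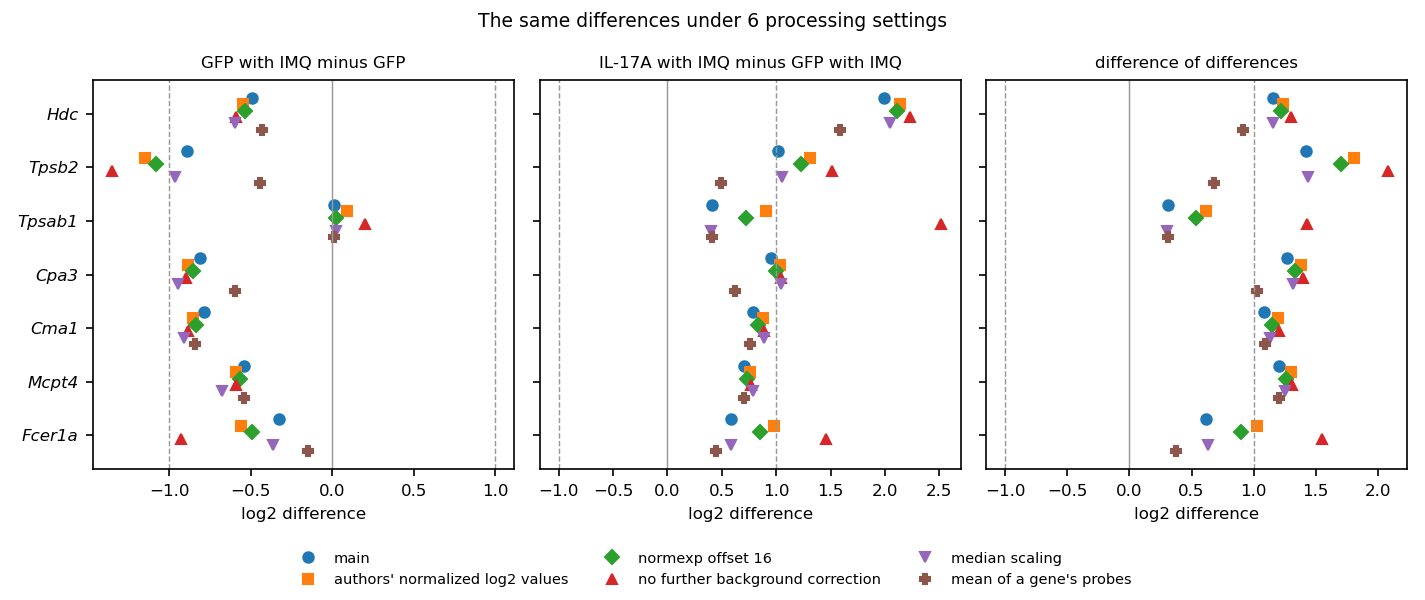
The horizontal axis is the log2 difference of a member in 3 comparisons, the vertical axis the 7 members above the limit on some array, each marker 1 of 6 processing settings, and dashed lines 2-fold. Markers of Cma1 and Mcpt4 lie close together (1.08 to 1.21 and 1.20 to 1.31 in the difference of differences). Those of the dimmer Tpsb2, Fcer1a and Tpsab1 spread widely (0.68 to 2.08 for Tpsb2). The Tpsb2 value of 0.68 is the mean that includes its dark second probe.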

How the data were processed

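Each of 4 arrays held a pool of 6 mice. The deposited intensities had already been background-subtracted by the authors, since 32.3% to 33.7% of the values on an array were negative. The deposited normalized log2 values had medians of 4.82 to 4.83 and ranked probes as the intensities did (Spearman correlation 0.9997 to 0.9999). The programs were not given in the sources used here.

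Intensities were corrected by normexp (offset 50) and quantile-normalized with limma 3.58.1 in R 4.3.3, then put on the log2 scale. The rest ran in Python 3.11.15. Noise was described by the negative values and their mirror image above 0, and the detection limit was its 0.99 quantile. In the annotation 34885 probes had 1 symbol, 18 had several and 10378 had none. A gene was read from its brightest probe above the limit on some array (12729 genes). Where the dimmer array was below its limit, the fold is a lower bound against the lowest level above the limit there or the probe's own. The procedure was tested on simulated data. The text names every member, the 5 nearest genes of each profile, and per list up to 3 genes with the largest differences. Defining cell markers are also named, as are further neutrophil genes where that list was divided. The members, lists and limit were chosen with earlier results of these data known. Alternatives were the authors' values, an offset of 16, no further background correction, median scaling, the mean of probes, thresholds of 1.5-fold and 3-fold, detection on all 4 arrays, and a limit at the 0.95 quantile. Each group had 1 array, so array position and group cannot be told apart. Precision is limited by the number of arrays.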

Additional observations from a re-analysis of the deposited data

Results flagged for a closer look

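For 5 members the IL-17A difference had opposite signs without and with IMQ, and for these and Hdc the IMQ difference had opposite signs in GFP and IL-17A skin, which made them results for a closer look. The size of the difference of differences was 1.42 for Tpsb2, 1.27 for Cpa3, 1.20 for Mcpt4, 1.15 for Hdc, 1.08 for Cma1 and 0.62 for Fcer1a on the log2 scale. Each rests on 4 single arrays and was not tested, and all 6 members had their lowest value on the array GFP with IMQ. In Fcer1a the IL-17A difference without IMQ was near 0, at -0.04.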

How the results depend on the processing

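Of 150 counts and medians recomputed over the members, 133 kept their value within 1.5 times (counts) or 0.25 on the log2 scale (medians), a tolerance chosen here in the absence of replicates. Shares in parentheses are those of all genes called the same way. With IMQ in GFP skin, 1 member (Tpsb2) was at least 2-fold lower in the authors' values (1.08%), with an offset of 16 (0.636%) and with no further background correction (5.12%), and 3 at 1.5-fold (2.06%). The member median there was -0.88 with no further background correction. For IL-17A under IMQ, 5 members were higher with no further background correction (5.98%, median 1.46), 5 at 1.5-fold (2.52%), 1 at 3-fold (0.519%) and 1 when a gene's probes were averaged (0.919%). With IMQ in IL-17A skin, 1 was higher with no further background correction (3.76%) and 2 at 1.5-fold (0.966%). For both treatments against neither the count was 2 with no further background correction (6.5%) and 0 at 3-fold (0.738%). For IL-17A without IMQ it was 1 (Hdc) at 1.5-fold (2.13%). In the difference of differences it was 3 when probes were averaged (0.479%) and 0 at 3-fold (0.118%). No member past 2-fold changed sign under 5 alternatives, and the signs that did change were those of Cma1 with both treatments against neither (-0.08 to 0.02) and of Fcer1a for IL-17A without IMQ (-0.09 to 0.07). Signals near the limit, those of Tpsab1, Ms4a2 and the second Fcer1a probe, limit what can be read. No paired analysis was possible because each group has 1 array, and no array could be left out.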
